A study of Mus musculus with 186 samples.

Results

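The effect of culturing mouse embryos outside the mother was examined in single inner cells, by setting embryos cultured for 16 hours in the vehicle DMSO against fresh embryos collected at E3.25. Columns were chosen by their labels alone: DMSO with the stage E2.75 plus 16 hours, and the fresh stage E3.25. These are 51 of the 170 columns. An E3.25 pair of columns carries 1 cell name and was averaged, so 31 cultured and 19 fresh cells were compared, 50 of 169 cells in the series. All embryos were of the CD-1 strain, from natural matings. Morulae were taken at E2.75, cultured in KSOM medium with DMSO for 16 hours, and reached a nominal age of 3.42 days, 4 hours past the fresh group. The fresh E3.25 embryos received no culture and no vehicle. In both groups the zona was removed and outer cells were lysed by immunosurgery. No untreated culture was analysed here, so culture and DMSO cannot be told apart. A second, separate culture comparison in the series served for contrast: 28 cells of embryos cultured from E2.75 for 24 hours in DMSO against 22 cells of fresh E3.75 embryos. Those groups have the same nominal age.

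Inner cells of the early blastocyst form the inner cell mass, the source of the epiblast, which builds the embryo proper, and of the primitive endoderm, which lines the yolk sac. Early inner cells carry both Nanog, an epiblast transcription factor, and Gata6, a primitive endoderm transcription factor, and lose one of them as they are specified by FGF4 signalling. In embryonic stem cells the cytokine LIF acts through the receptor subunit LIFR and the kinase JAK1 on the transcription factor STAT3. ATF4 is the transcription factor of the response to scarce amino acids and other stresses, and its targets make or import amino acids.

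An experiment, all cells of a group with 1 date label, was taken as the replicate. There were 3 experiments at 16 hours, with 3, 18 and 10 cells, and 2 at E3.25, with 9 and 10 cells. Each value below is the mean over the cells of an experiment of log2(TPM + 1), unless a unit is given, and values stand in the order of the experiments. TPM is transcript abundance per length, scaled to 1 total per cell. A mean of this kind does not separate fewer expressing cells from a lower level per cell. Differences are 16 hours minus E3.25, with the standard error (SE) of the limma fit.

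The first 16-hour experiment, of 3 cells, stood apart: 9995 genes per cell had a TPM of 1 or more, against 7156 and 7102 in the other 2, and 6393 and 6078 at E3.25. The means were 8084 ± 1655 (SD, n = 3) and 6235 ± 223 (n = 2), with an exact permutation p = 0.3, where the smallest possible p is 0.1. Mitochondrially encoded transcripts made up 10.8%, 14.3% and 13.3% of TPM at 16 hours and 3.04% and 10.8% at E3.25 (exact permutation p = 0.2). Ribosomal protein transcripts made up 23.9%, 27.9% and 34.3% against 30.6% and 17.2%. Among expressed protein-coding genes the difference also followed transcript length. Its median was 2.2 for 19 genes whose longest transcript has at most 500 bases, 0.83 for 284 genes with more, up to 1000 bases, and 0.05 for 611 genes over 4000 bases. In the 24-hour comparison the same 3 medians were -0.21, 0.02 and 0.22. Per the labels, amplified cDNA above 500 bases was recovered for the libraries; the part of that step was not tested. All 16-hour experiments carry dates of the year after the E3.25 experiments, so culture and date cannot be told apart, whereas the 24-hour and E3.75 experiments fall in the same year.

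**Figure D1:**
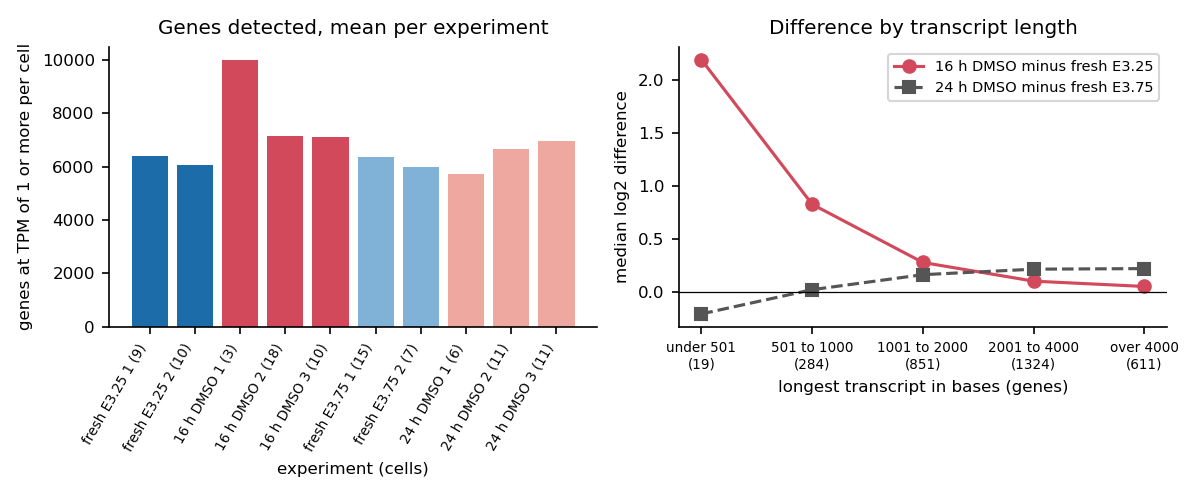
Left, genes with a TPM of 1 or more per cell, as the mean of each experiment, with the number of cells in brackets; the first 16-hour experiment reaches 9995. Right, median log2 difference of expressed protein-coding genes against the length of their longest transcript, with the number of genes in brackets; only the 16-hour comparison falls steeply, from 2.2 to 0.05.

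Of 11680 genes tested, 6 passed the limma threshold (adjusted p under 0.05), which is 0.0514% of them: 5 were higher after culture and 1 lower. The fit took 18 experiments as independent although they fall on 12 dates, since cultures with the PI3K inhibitor LY share dates with the DMSO cultures. With the LY groups left out, a setting chosen after the data were seen that leaves 12 experiments on 12 dates, 0 genes passed in limma, with 1537 at an unadjusted p under 0.05. With all groups in the fit, 1599 genes had an unadjusted p under 0.05, of which 1328 were higher. The median difference over all tested genes was 0.32, so a positive difference of that size was the level of the typical gene. In 23.2% of tested genes all 3 culture means lay above both E3.25 means, and in 6.93% all 3 lay below. Of the called genes the split of higher to lower was 5 to 1, but 7 to 3 after quantile normalization, 6 to 7 with a pseudocount of 10, 1 to 3 with log2 of the mean TPM and 2 to 3 with the length trend removed. The 2 shares of genes without overlap are the background for the counts of non-overlapping genes given below.

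Prl3b1, which encodes a placental lactogen of the prolactin family, was listed at 0 in every E3.25 cell and averaged 1.49, 1.54 and 1.3 in the 16-hour experiments. It had a TPM of 1 or more in 11 of 31 cultured cells and in 0 of 19 fresh cells; a count of 0 sets an upper limit of 15.8% there. The rise was 1.45 ± 0.21 (SE) with an adjusted p = 0.00906. All experiment means were 0 in E3.25, fresh E4.0 and 24-hour LY, so values at the floor narrow the spread behind this SE and p. A TPM of 1 or more was reached in 2 of 22 E3.75 and 1 of 28 24-hour DMSO cells. Of the groups compared, only 16-hour DMSO therefore met the filter for testing. Prl3b1 (ENSMUSG00000038891.3) lies on chromosome 13 at 27241847 to 27249683 in GRCm38. It was a low transcript even after culture, with a highest TPM of 74.1 in any cell.

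Rab26os, annotated as antisense to the gene of the vesicle GTPase RAB26, averaged 0.21 and 0.07 at E3.25 and 4.19, 3.65 and 3.79 after culture. It was detected in 1 of 19 fresh and 25 of 31 cultured cells, and rose by 3.74 ± 0.63 (adjusted p = 0.0408). The sources used here do not give the strand of counting, so its reads cannot be told from those of Rab26. It lies on chromosome 17 at 24528248 to 24528744. The long noncoding RNA Gm48222, on chromosome 13 at 66032209 to 66040247, averaged 0.27 and 0.19 against 3.66, 3.18 and 3.27. Its rise was 3.13 ± 0.56 (adjusted p = 0.0444). Neither transcript had overlapping experiments between the groups.

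The other 3 called transcripts need more care. Gm12616 is an unprocessed pseudogene on chromosome 11 at 60679707 to 60680088, among near-identical copies that can share its reads. Its means were 4.78 and 0.79 at E3.25 and 8.59, 8.49 and 10.15 after culture, a rise of 6.29 ± 1.12 (adjusted p = 0.0444). The mitochondrial methionine tRNA mt-Tm, only 69 bases long, averaged 0 and 0.66 against 6.28, 5.75 and 4.74, and rose by 5.26 ± 0.98 (adjusted p = 0.0499). Its TPM was 1 or more in 1 of 19 E3.25, 23 of 31 16-hour, 2 of 22 E3.75 and 4 of 28 24-hour DMSO cells. Of these groups, only 16-hour DMSO met the filter for testing. The long noncoding RNA Gm15892, on chromosome 11 at 88059066 to 88067476, was the only transcript that fell: its means were 0.83 and 1.68 at E3.25 and 0, 0.14 and 0 after culture. Its difference was -1.21 ± 0.22 (adjusted p = 0.0499), with detection in 5 of 19 and 1 of 31 cells. Between E3.25 and 16 hours, only E3.25, where Gm15892 is higher, met the filter for testing. Gm12616, Gm48222 and Gm15892 are named because they passed, outside the naming rule, which leaves out such gene models.

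The number of calls rested on the E3.25 experiments. It was 52 without the first and 0 without the second of them, and 1, 3 and 1 without each 16-hour experiment in turn. Prl3b1 was past the threshold in all of these fits but the one lacking that second E3.25 experiment. Its adjusted p was 0.0645 without the LY groups, 0.204 with only the groups compared in the fit and 0.167 with the length trend removed. Over the alternatives that gave a value, Prl3b1 was past the threshold in 14 of 21, Gm12616 in 12 of 22, Rab26os in 11 of 22, Gm48222 in 9 of 22, mt-Tm in 9 of 21 and Gm15892 in 7 of 21. All 6 kept their direction in each of them.

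The naming rule adds protein-coding genes that did not pass. B2m, the light chain of MHC class I, averaged 1.09 and 0.52 at E3.25 and 5.73, 5.29 and 5.11 after culture, a difference of 4.58 ± 0.90 (adjusted p = 0.0621). It was detected in 4 of 19 fresh E3.25 and 30 of 31 cultured cells. In fresh E3.75 experiments B2m averaged 3.24 and 0.18, with detection in 12 of 22 cells, and in fresh E4.0 ones 3.85 and 1.96. Obox6, an oocyte-type homeobox gene of early embryos, averaged 0.09 and 0.98 against 5.67, 3.90 and 4.19 (difference 4.05 ± 0.84, adjusted p = 0.088). On the other side, the potassium channel subunit gene Kcnf1 averaged 1.04 and 1.14 against 0.02, 0.06 and 0.04 (adjusted p = 0.143). Pex11a, a factor of peroxisome division, and Cbln1, a secreted synapse organizer, had differences of -1.12 ± 0.26 and -1.37 ± 0.33 (adjusted p = 0.147 and 0.159). None of these genes had overlapping experiments, and none passed.

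**Figure D2:**
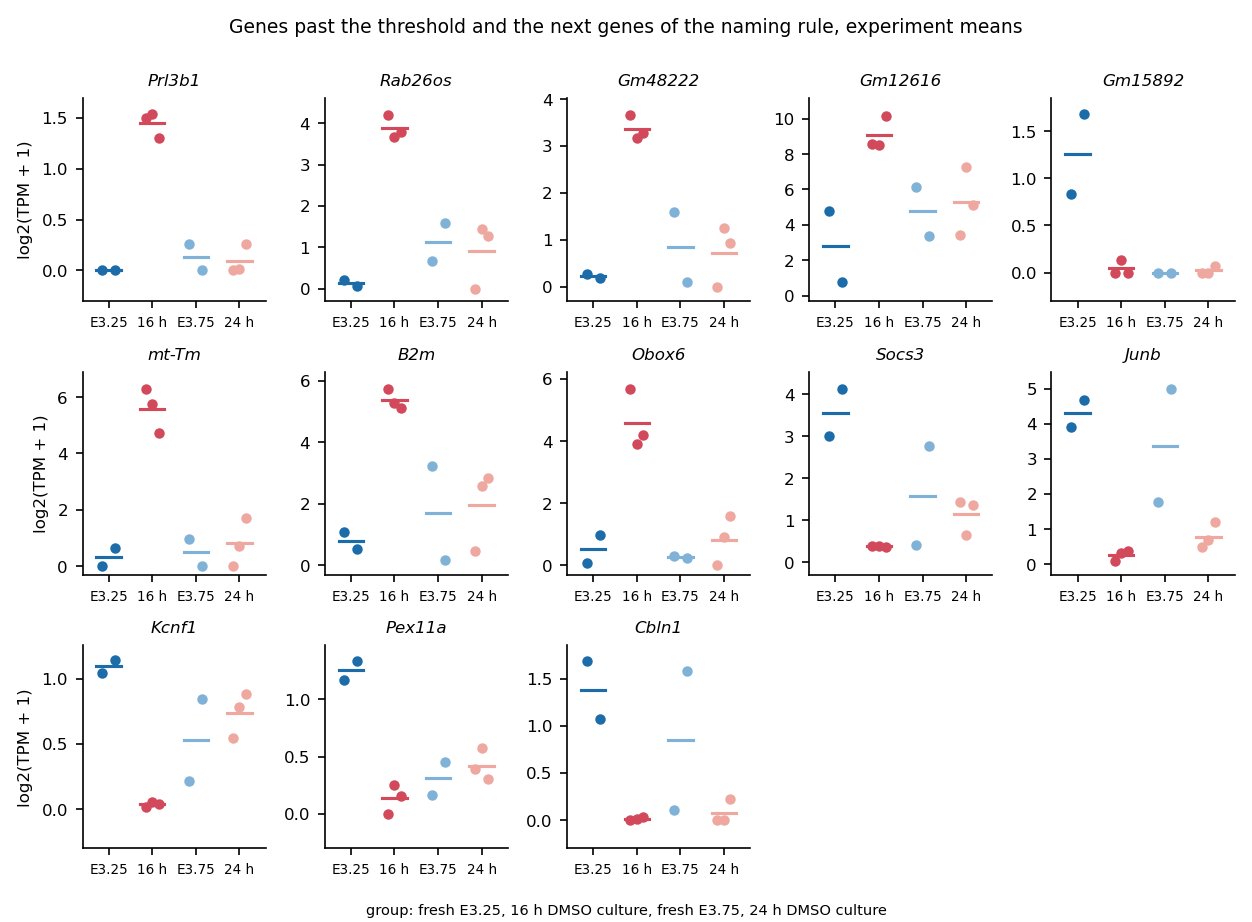
Experiment means of log2(TPM + 1) for the 6 genes past the threshold and the 7 protein-coding genes that follow under the naming rule, in fresh E3.25, 16-hour DMSO, fresh E3.75 and 24-hour DMSO; horizontal lines are group means. Prl3b1, Rab26os, B2m and Obox6 are higher in each 16-hour experiment than in any of the other 7, and Socs3 and Junb lie between 0.09 and 0.39 there.

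Genes of the LIF and STAT3 pathway had the lowest median of the 42 lists with a tested gene. Over 12 tested genes it was -1.21, against 0.32 for all genes. None passed the threshold, but 9 of 12 lay below both E3.25 means in all 3 culture experiments, where the background is 6.93%, and 1 lay above. The list's median stayed below 0 under all 22 alternative settings, from -2.09 to -0.85.

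Socs3, the feedback inhibitor that STAT3 induces, averaged 3.0 and 4.13 at E3.25 and 0.38, 0.39 and 0.36 at 16 hours. Its TPM was 1 or more in 17 of 19 fresh cells and 6 of 31 cultured cells, where it never exceeded 2.76. The difference was -3.19 ± 0.62 (adjusted p = 0.0559). Socs3 is also the only one of 11 list genes with a RefSeq promoter whose window, 250 bases before to 50 after a start, holds the STAT palindrome TTCNNNGAA. The match is shown in capitals, on the gene's strand at chr11:117969503-117969529 of GRCm38.p6, because this is the gene with the smallest p of the list:

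Socs3: aaaccagccTTCTTAGAAgggaggggg

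Counted by promoter and read on both strands, that motif occurs in 7.69% of the 13 promoters of the list genes. It occurs in 6.14% of the promoters of tested genes and in 8.3% of all promoters. A match is a description of letters only. Junb, an AP-1 transcription factor that is both a STAT3 target and an immediate early gene, averaged 3.91 and 4.68 at E3.25 and 0.09, 0.32 and 0.38 after culture. It was detected in 18 of 19 and 3 of 31 cells, and the difference was -4.03 ± 0.78 (adjusted p = 0.0559). The transcriptional coregulator gene Bcl3 averaged 3.66 and 4.32 against 2.29, 0.21 and 0.98. Stat3 itself averaged 3.20 and 4.94 against 2.96, 1.65 and 1.91, and the kinase gene Pim3 4.22 and 5.52 against 1.94, 2.33 and 3.24. Their differences were -2.83 ± 0.93, -1.89 ± 0.72 and -2.36 ± 0.92 (adjusted p = 0.232, 0.269 and 0.278). In the fresh E3.75 experiments Socs3 averaged 0.41 and 2.76, with detection in 8 of 22 cells. Bcl3 averaged 2.44 and 5.65 there, Stat3 1.71 and 3.12, and Pim3 2.02 and 3.20.

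The receptor side was near its floor. Lifr averaged 0.68 and 0.38 at E3.25 and 0.01, 0.02 and 0 after culture. Il6st, the signalling partner of LIFR, averaged 1.62 and 1.76 against 1.65, 0.34 and 0.31, so the first culture experiment overlapped the fresh ones. Jak1 was the exception of the list, with 0.78 and 0.29 at E3.25 and 2.45, 1.71 and 1.94 after culture (difference 1.5 ± 0.57, adjusted p = 0.266).

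Immediate early genes, which are switched on within minutes by growth factors or stress, had a median of -0.43 over 18 tested genes, with 6 wholly below and 1 wholly above the E3.25 means. None passed. Fos averaged 1.77 and 2.10 at E3.25 and 0, 0.24 and 0.32 after culture (difference -1.75 ± 0.43, adjusted p = 0.159). Egr1 averaged 1.74 and 3.08 against 0.02, 0.42 and 0.89. Ier2 averaged 6.26 and 6.45 against 5.34, 2.94 and 3.7 (adjusted p = 0.241 and 0.259). The list was uneven: Jun and Atf3 had differences of -0.13 and 0.11, and Fosl1, an AP-1 partner, had 0.81. Its median ranged from -0.64 to -0.18 with 1 experiment left out. Id3, a BMP-induced inhibitor of basic helix-loop-helix factors, had a wide spread, with 7.62 and 6.06 against 5.61, 2.50 and 0.44 (difference -3.99 ± 1.45, adjusted p = 0.258).

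ATF4 target genes had a median of 1.48 over 22 tested genes. Of these, 13 lay above both E3.25 means in all culture experiments, where the background is 23.2%, and 1 lay below. None passed the threshold. Nupr1, a stress-induced chromatin protein, averaged 0 and 0.36 at E3.25 and 7.83, 6.13 and 3.11 after culture. It was detected in 1 of 19 fresh and 26 of 31 cultured cells, and its difference was 5.51 ± 1.3 (adjusted p = 0.149). Psph, the last enzyme of serine synthesis, averaged 1.87 and 0.27 against 6.19, 4.51 and 3.28 (difference 3.59 ± 0.92, adjusted p = 0.161). Ddit4, an inhibitor of the growth kinase complex mTORC1, averaged 0.92 and 0.91 against 3.62, 3.94 and 3.43. The glutathione-degrading enzyme gene Chac1 was at 0 in both E3.25 experiments and averaged 2.62, 2.45 and 1.33 after culture. Trib3, a pseudokinase induced by ATF4, averaged 0.78 and 0.01 against 4.85, 2.97 and 2.13. Differences of Ddit4, Chac1 and Trib3 were 2.8 ± 0.84, 2.13 ± 0.70 and 2.93 ± 0.97 (adjusted p = 0.214, 0.232 and 0.232). In the fresh E3.75 experiments Nupr1 averaged 4.54 and 0, with detection in 14 of 22 cells, and Psph 4.28 and 1.44. Nupr1 and Psph thus also varied widely without culture. Ddit4 averaged 1.21 and 0 there, Chac1 1.16 and 0.67, and Trib3 1.59 and 0.04.

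The members were uneven. Atf4 itself overlapped, and averaged 6.68 and 8.52 at E3.25 and 8.35, 7.46 and 6.65 after culture. Psat1, of serine synthesis, averaged 5.03 and 6.34 against 8.26, 8.09 and 7.51, and Pycr1, of proline synthesis, 0.32 and 0.70 against 3.10, 1.87 and 1.95. Phgdh, the first enzyme of serine synthesis, overlapped, with a difference of 0.81 ± 0.77. Asns, asparagine synthetase, also overlapped, with 4.31 and 1.5 against 5.33, 5.29 and 3.73. Eif4ebp1 and the amino acid carrier gene Slc7a5 had differences of -0.67 and -0.41. Mthfd2, the mitochondrial folate enzyme that ATF4 also induces, averaged 1.58 and 1.21 against 4.80, 4.17 and 2.78 (difference 2.52 ± 0.77, adjusted p = 0.214). Without the 3-cell experiment the median of the 22 genes was 0.88 and that of all genes 0.04.

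The core of the amino acid response element, searched as TGATGNAA on both strands, was found in the RefSeq promoter windows of 5 of the 18 ATF4 list genes with a promoter, Chac1, Trib3, Asns, Nupr1 and Pycr1. Counted by promoter, it is in 25% of the 20 promoters of these list genes. It is in 2.04% of the promoters of tested genes and 3.97% of all promoters. The windows of 4 of these genes are shown because they stand with the highest and the overlapping members above; capitals mark the match, and each is read on its gene's strand in GRCm38.p6. Nupr1 lies at chr7:126625564-126625589, Pycr1 at chr11:120643835-120643860, Chac1 at chr2:119351040-119351065 and Asns at chr6:7693216-7693241. The matches of Nupr1 and Chac1 are on the opposite strand to the gene.

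Nupr1: agggccagaTTGCATCAgacagggct

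Pycr1: ccctgtgtaTGATGCAAtgcacaagg

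Chac1: tccctgccgTTGCATCActcctgcca

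Asns: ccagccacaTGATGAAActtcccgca

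**Figure D3:**
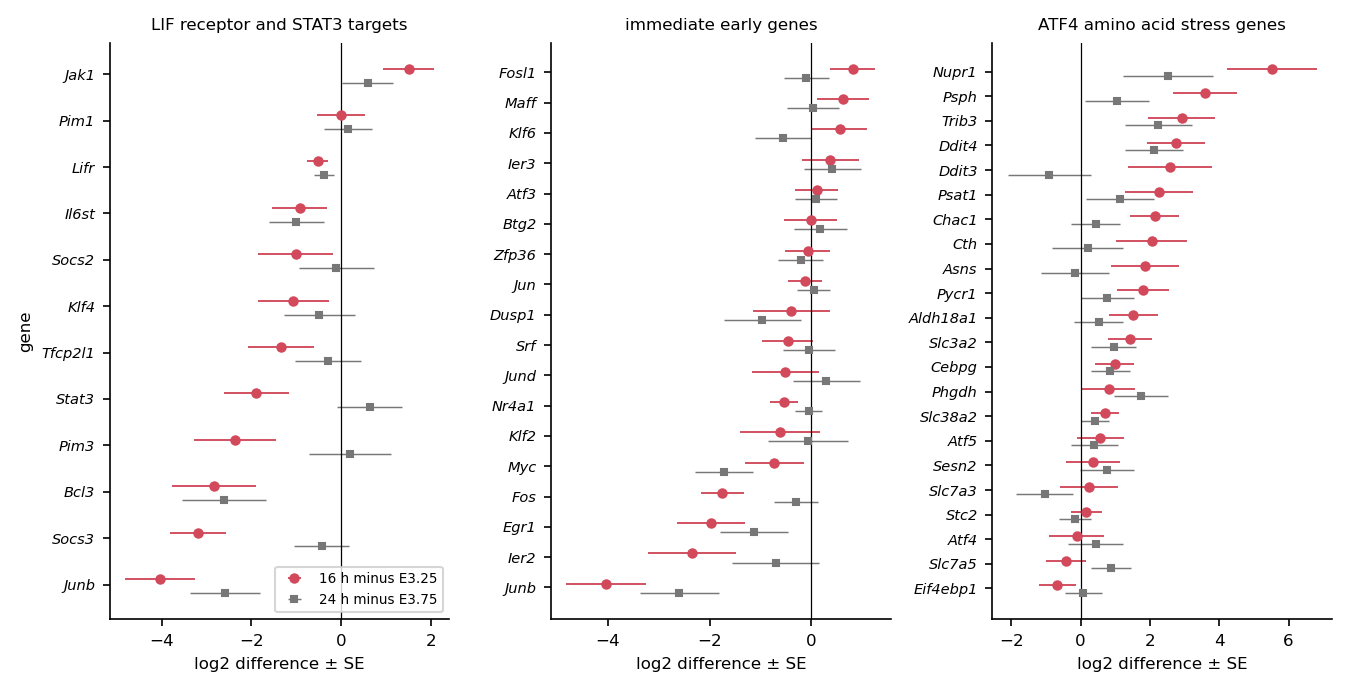
Log2 difference ± SE of every tested gene of 3 lists, for 16-hour DMSO minus fresh E3.25 (circles) and 24-hour DMSO minus fresh E3.75 (squares). Socs3 and Junb lie lowest and Nupr1 highest at 16 hours; none of the genes shown passed the threshold in either comparison.

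The 13 mitochondrially encoded protein genes, which make subunits of the respiratory chain, had a median of 2.80; 11 lay wholly above the E3.25 means and none passed. They are themselves part of the mitochondrial share of TPM given above, and the part of library quality in them was not tested. The spread between the fresh experiments was wide: mt-Nd2, a complex I subunit, averaged 8.0 and 10.75 at E3.25 against 12.35, 12.81 and 12.47. mt-Nd3, another complex I subunit with a short message, averaged 3.17 and 3.57 against 10.52, 11.73 and 11.06 (difference 7.74 ± 2.10, adjusted p = 0.171). In the fresh E3.75 experiments mt-Nd3 averaged 9.55 and 1.28, so it also varied widely without culture. mt-Cytb, the cytochrome b gene, went against the rest with 11.57 and 13.88 at E3.25 and 11.61, 12.24 and 11.91 after culture. The median of the 13 genes was 4.48 without the second and 1.80 without the first E3.25 experiment.

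Further lists of nuclear genes had high medians as well. Cytosolic ribosomal proteins had a median of 1.14 over 88 genes, with 38 wholly above and 5 wholly below; nuclear subunits of oxidative phosphorylation had 0.99 over 78 genes, with 27 above and 10 below; and proteasome subunits had 1.20 over 36 genes, with 15 above and 1 below. Rps27a, which encodes a ribosomal protein fused to ubiquitin, averaged 9.85 and 8.18 at E3.25 and 11.66, 12.36 and 12.27 after culture. Atp5k, a small ATP synthase subunit, averaged 7.48 and 3.35 against 9.30, 9.66 and 9.90. Psma4, of the proteasome core, averaged 4.5 and 6.03 against 9.51, 8.67 and 8.41. Their adjusted p-values were 0.171, 0.186 and 0.251, and ribosomal protein genes also share reads with many processed copies. The medians rested on the second E3.25 experiment. Without it they were 0.27 for ribosomal proteins, 0.09 for oxidative phosphorylation and 0.29 for the proteasome, all below the 0.31 of all genes. Without the first E3.25 experiment they were 2.09, 1.73 and 1.1. Without the 3-cell experiment oxidative phosphorylation had 0.60 and the proteasome 0.63, and with genes detected as a covariate 0.15 and 0.13. With the trend on transcript length removed from each experiment, they were 0.68, 0.49 and 0.80 against -0.06 for all genes. That setting was chosen after the data were seen. Relative to all genes in the same setting, the medians ranged from -0.04 to 1.77, -0.22 to 1.41 and -0.02 to 0.93 over 22 alternatives.

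Pluripotency and epiblast genes were on the low side. Of the inner cell markers, Pou5f1 had a TPM of 10 or more in 19 of 19 fresh and 30 of 31 cultured cells. Nanog did likewise in 19 of 19 and 30 of 31, and Gata6 in 15 of 19 and 24 of 31. Sox2 reached 10 in 10 of 19 and 10 of 31 cells, and 1 in 19 of 19 and 19 of 31. Nanog averaged 7.21 and 9.13 at E3.25 and 6.18, 5.73 and 6.42 after culture. Its median TPM over cells was 268 at E3.25, with a range of 36.4 to 1579, and 70.8 after culture, with a range of 3.37 to 184. The difference was -2.06 ± 1.05 (adjusted p = 0.387). Pou5f1, the core pluripotency factor, averaged 8.09 and 8.65 against 8.0, 6.55 and 6.87 (difference -1.23 ± 0.59, adjusted p = 0.362). Both kept their sign under all alternatives, and neither passed in any.

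Epiblast markers had a median of -0.99 over 17 genes, with 6 wholly below and 0 wholly above. Bmp4, a signal of the early epiblast, averaged 3.6 and 2.59 at E3.25 and 1.61, 0.08 and 0 after culture, with detection in 12 of 19 and 2 of 31 cells (difference -2.54 ± 0.94, adjusted p = 0.261). Tdgf1, the NODAL co-receptor, averaged 6.06 and 6.05 against 4.48, 4.57 and 2.97. Sox2 overlapped, at 3.42 and 4.04 against 4.22, 2.38 and 1.11, as did the ligand gene Fgf4, at 4.35 and 2.44 against 3.12, 1.66 and 2.13. The epiblast median was -0.62 without the third culture experiment and -0.65 when the first fresh one was left out. Among 20 pluripotency factors, 8 were wholly below and 4 wholly above, with a median of -0.62, or -0.37 without the third culture experiment and -0.40 without the second fresh one. Tbx3, a T-box factor of naive pluripotency, averaged 4.84 and 5.24 against 3.16, 2.82 and 2.78 (difference -2.12 ± 0.63, adjusted p = 0.21). Dppa3, a maternal protector of DNA methylation, lay on the other side, at 8.98 and 7.01 against 11.07, 11.04 and 10.88 (difference 3.0 ± 1.21, adjusted p = 0.294). Klf4 and Esrrb lay wholly below the E3.25 means, by -1.07 ± 0.79 and -0.66 ± 0.80, and each turned sign under 1 of 22 alternatives.

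Primitive endoderm markers had a median of -0.08 over 23 genes, with 2 wholly above and 4 wholly below. Gata6 was level, at 3.68 and 4.73 against 4.19, 4.32 and 3.79 (difference -0.10 ± 0.62, adjusted p = 0.958). Later markers were low in both groups: Sox17 averaged 1.20 and 1.74 at E3.25 and 0.70, 0.23 and 0 after culture, and Gata4 0.96 and 1.35 against 0, 0.55 and 0.14. The receptor Pdgfra overlapped (difference -0.19 ± 0.74). Aqp8, a water channel, averaged 2.93 and 1.94 against 0.19, 0.52 and 0 (adjusted p = 0.214). Lrp2, the endocytic receptor megalin, averaged 0.47 and 0.11 against 2.37, 0.79 and 1.24 (adjusted p = 0.219).

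Cells with both Nanog and Gata6 at a TPM of 10 or more made up 66.7% and 90% of the E3.25 experiments and 66.7%, 83.3% and 60% of the 16-hour ones. The means were 78.3 ± 16.5% (SD, n = 2) and 70 ± 12% (n = 3), and the exact permutation p = 0.6. Pooled over cells, 15 of 19 fresh cells (Clopper-Pearson 95% interval 54.4 to 93.9%) and 23 of 31 cultured cells (55.4 to 88.1%) held both, and 4 and 7 held Nanog only. There was 1 cultured cell with Gata6 only, and no cell with neither; a count of 0 allows up to 15.8% of fresh and 9.68% of cultured cells. Intervals and limits cover counting error only. The direction of the share was not stable: it was -20.6 percentage points in sequencing run 2 and 16 in run 1.

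**Figure D4:**
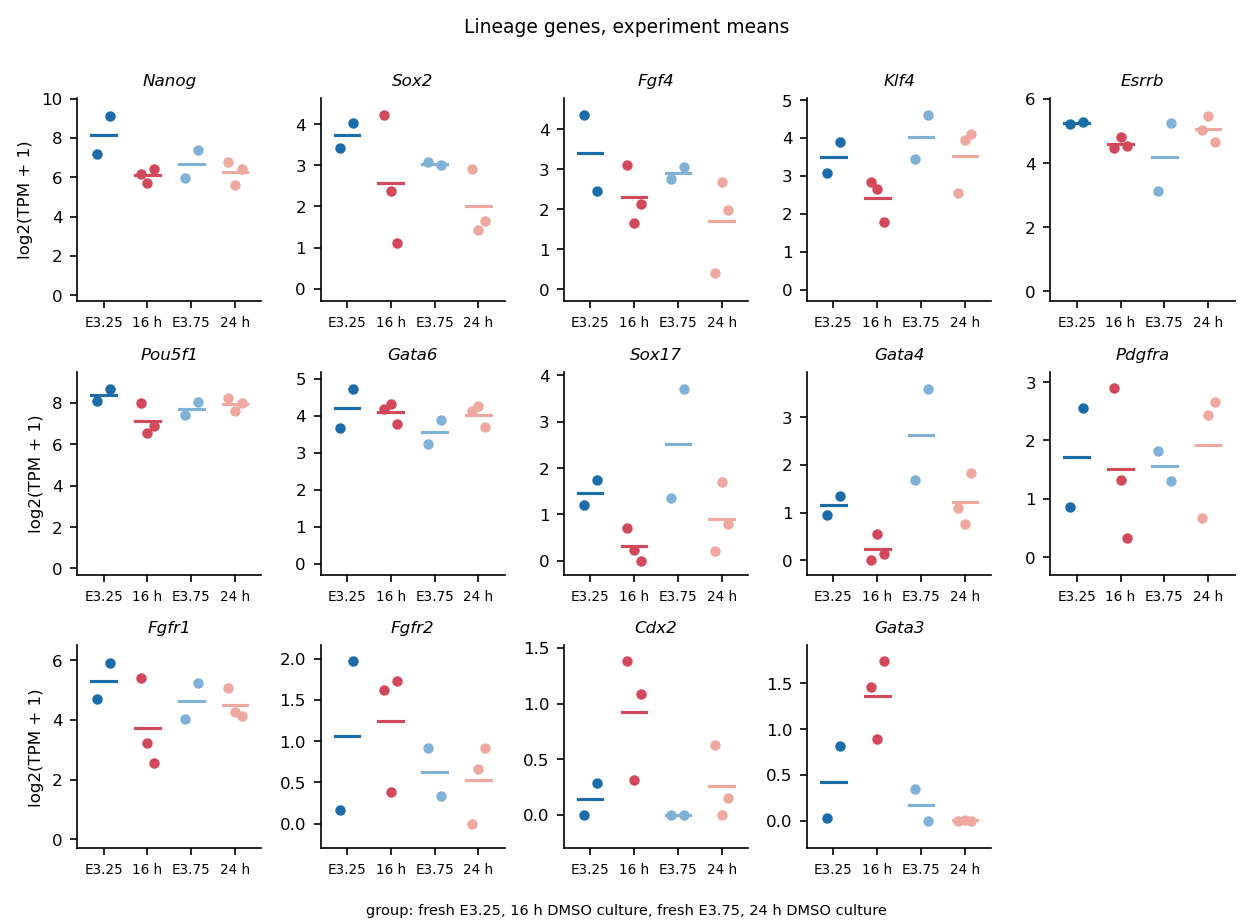
Experiment means of log2(TPM + 1) for 14 lineage genes in fresh E3.25, 16-hour DMSO, fresh E3.75 and 24-hour DMSO, with group means as lines. Nanog lies between 5.73 and 6.42 at 16 hours, below both E3.25 values, while Gata6 overlaps.

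Trophectoderm markers, genes of the outer layer removed by immunosurgery, had a median of 0.84 over 16 genes, with 4 wholly above and 1 wholly below. Both counts are near the background of 23.2% above and 6.93% below. Cdx2, the trophectoderm master factor, averaged 0 and 0.29 at E3.25 and 1.39, 0.31 and 1.08 after culture, and was detected in 1 of 19 and 8 of 31 cells. Gata3 averaged 0.03 and 0.82 against 1.46, 0.89 and 1.74 (3 of 19 and 13 of 31 cells). Their differences were 0.78 ± 0.32 and 0.94 ± 0.37 (adjusted p = 0.306 and 0.288). Aqp3, a water channel, lay lower, at 2.95 and 3.29 against 1.6, 1.09 and 0.92 (difference -1.93 ± 0.52, adjusted p = 0.171). The summed TPM of the 21 markers was 1346, 360 and 497 after culture and 438 and 647 at E3.25. The 3-cell experiment was thus the highest, and without it the list median was 0.12. Relative to all genes in the same setting, that median ranged from -0.05 to 0.70 over 22 alternatives. Elf5 was below a TPM of 1 in every cell of both groups. The keratin gene Krt8, by contrast, had a TPM of 10 or more in 18 of 19 fresh and 29 of 31 cultured cells. Krt18 did so in 13 of 19 and 27 of 31, and Eomes in 3 of 19 and 0 of 31. Of genes of other tissues, Ptprc, Col1a1 and Amh stayed below 1 in every cell, while the globin gene Hba-a1 reached 1 in 7 of 31 cultured and 0 of 19 fresh cells. The part of other cells in the results was not tested.

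Growth factor and PI3K genes lay near the level of all genes or below it. Receptors, ligand and ERK targets of the FGF pathway had a median of -0.16 over 13 genes, with none wholly above or below. Fgfr1 averaged 4.70 and 5.91 at E3.25 and 5.38, 3.23 and 2.55 after culture (difference -1.58 ± 0.90, adjusted p = 0.43). Fgfr2 was low and level, with a difference of 0.18 ± 0.61 that turned sign under 8 of 22 alternatives. PI3K, AKT and mTOR parts had a median of 0.00 over 21 genes, with 4 wholly below. Akt2, an AKT kinase, averaged 6.26 and 5.95 against 5.58, 3.12 and 3.51 (difference -2.03 ± 0.82, adjusted p = 0.294), whereas Akt1 overlapped.

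Cholesterol synthesis genes had a median of 0.84 over 24 genes, with 8 wholly above and 0 wholly below. The median was 0.30 without the 3-cell experiment and -0.08 with genes detected as a covariate. Relative to all genes in the same setting, it ranged from 0.06 to 0.99 over 22 alternatives. Sqle, squalene epoxidase, averaged 1.38 and 0.95 at E3.25 and 5.0, 2.7 and 2.93 after culture (difference 2.38 ± 0.69, adjusted p = 0.21). Imprinted genes and Xist had a median of 0.90 over 19 genes, with 6 wholly above and 1 wholly below. The median was 0.37 without the 3-cell experiment. Relative to all genes, it ranged from 0.17 to 0.99 over the same alternatives. Xist, the RNA that silences an X chromosome in females, averaged 0.06 and 0.54 against 5.11, 2.33 and 0.86 (adjusted p = 0.251), and Igf2r was the gene wholly below, at 1.83 and 2.28 against 0.81, 0.99 and 1.36. The sex of the embryos is not given in the labels. Of cell cycle genes, Ccnb1, the mitotic cyclin, averaged 4.05 and 4.42 against 8.67, 8.15 and 7.67 (difference 3.93 ± 1.18, adjusted p = 0.214). Ccnd3, a cyclin of G1, averaged 7.98 and 7.92 against 6.93, 5.67 and 5.18 (difference -2.02 ± 0.69, adjusted p = 0.24). Mitosis genes had a median of 0.44 and DNA replication genes of -0.11.

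Other lists that bear on culture stress had lower medians than the ATF4 targets, and these moved with the experiments included. Metallothionein and zinc transport genes had a median of 0.72 over 9 genes, against 0.32 for all genes. Oxidative stress and NRF2 targets had a median of 0.19 over 21 genes, hypoxia targets 0.55 over 16, endoplasmic reticulum chaperones -0.01 over 19 and p53 targets -0.01 over 17. Heat shock chaperones had -0.24 over 14, below all genes in each of the alternatives. Without the first and the second E3.25 experiment in turn, oxidative stress genes had 1.06 and -0.40, hypoxia targets 0.77 and 0.06, and p53 targets 0.35 and -0.28. With 1 experiment left out the chaperones of the endoplasmic reticulum ranged from -0.39 to 0.36 and those of heat shock from -0.53 to -0.01. Single members stood out within them. Prdx1, a peroxide-removing enzyme, averaged 4.46 and 4.19 at E3.25 and 9.87, 9.10 and 7.74 after culture (difference 4.58 ± 1.5, adjusted p = 0.235). Hsph1, a heat shock chaperone, averaged 6.37 and 7.04 against 5.52, 4.96 and 4.25 (adjusted p = 0.346), while the small chaperone gene Hspb1 averaged 5.25 and 3.86 against 6.81, 6.15 and 6.69 (adjusted p = 0.327). Pmaip1, a death-promoting p53 target, averaged 1.39 and 1.18 against 0, 0.17 and 0 (adjusted p = 0.263).

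**Figure D5:**
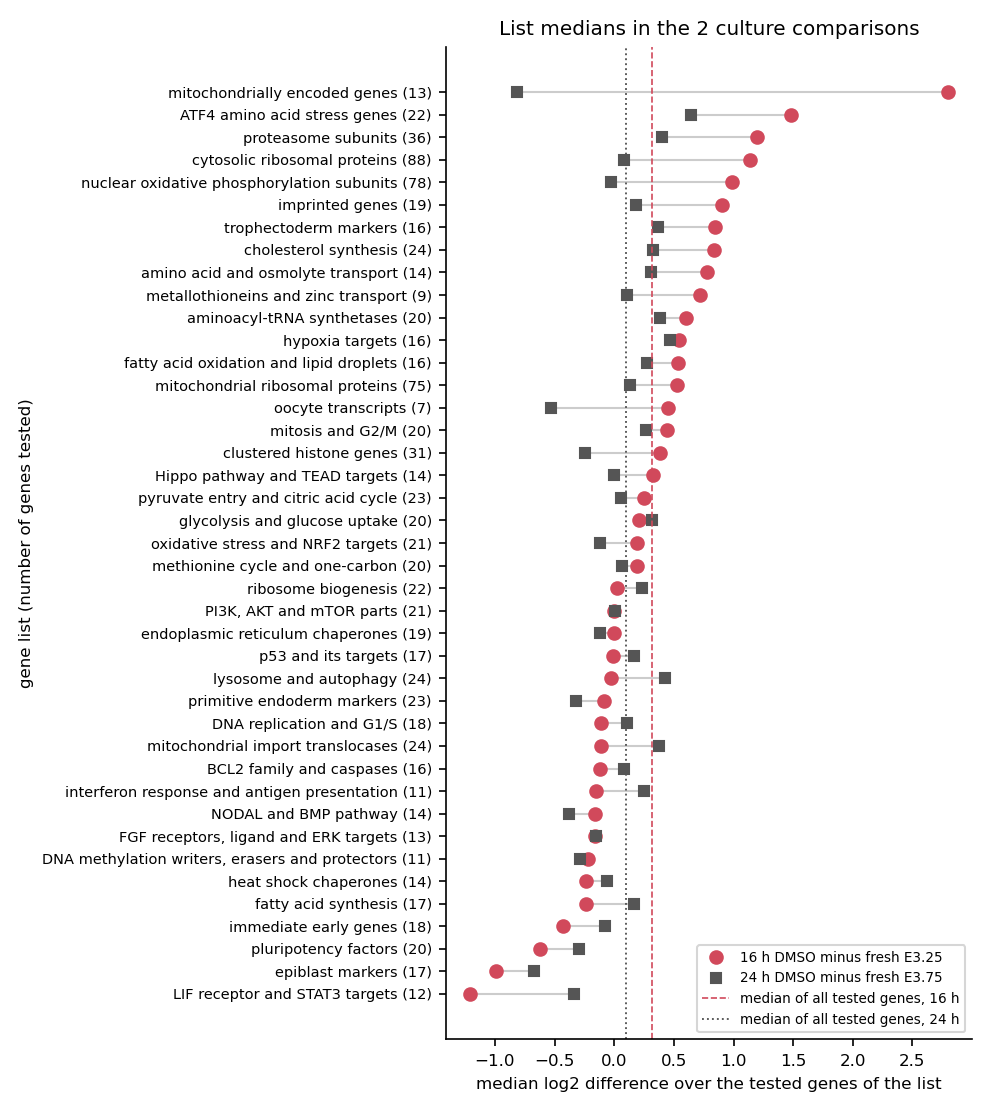
Median log2 difference of the tested genes of each list with at least 5 of them, for 16-hour DMSO minus fresh E3.25 (circles) and 24-hour DMSO minus fresh E3.75 (squares); dashed and dotted lines are the medians of all tested genes, 0.32 and 0.10. Mitochondrially encoded genes lie at 2.80 and -0.82, ATF4 targets at 1.48 and 0.65, and LIF and STAT3 genes at -1.21 and -0.34.

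The 24-hour culture set against fresh E3.75 cells shares no sample with the 16-hour comparison, though both use 1 estimate of the spread. There 0 genes passed in limma (0% of 11680), with 370 at an unadjusted p under 0.05 and a smallest adjusted p of 0.484. In 12.5% of genes all 3 culture means lay above both E3.75 means and in 5.49% all lay below. The differences of the 2 comparisons had a Pearson correlation of 0.11 and a Spearman correlation of 0.10 across 11680 genes, which are not independent replicates, and 56.3% of genes had the same sign. The difference between the culture effects was tested for each gene, and 0 passed (0%), with 655 at an unadjusted p under 0.05. The smallest adjusted p-values were 0.0852 for the mitochondrial asparagine tRNA mt-Tn and 0.218 for Prl3b1 among genes under the naming rule.

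Some genes lay on the same side in both comparisons. Junb averaged 1.76 and 4.99 at E3.75 and 0.47, 0.69 and 1.19 after 24 hours (difference -2.59 ± 0.78, adjusted p = 1). Bcl3 had -2.61 ± 0.93, Bmp4 -3.25 ± 0.94 and Aqp8 -2.58 ± 0.67 at 24 hours, all wholly below E3.75. Ddit4 had 2.12 ± 0.84, Trib3 2.24 ± 0.97 and Chac1 0.44 ± 0.70, all wholly above. ATF4 targets had a median of 0.65 at 24 hours, with 10 of 22 wholly above where the background is 12.5%, and epiblast markers -0.67, with 8 of 17 wholly below where it is 5.49%. Other genes overlapped between the 24-hour and E3.75 experiments: Socs3 had -0.44 ± 0.62, B2m 0.25 ± 0.90, Rab26os -0.22 ± 0.63, Prl3b1 -0.04 ± 0.21 and Tbx3 -0.11 ± 0.63. For none of these genes was the difference between the 2 culture effects past the threshold. Mitochondrially encoded genes had a median of -0.82 at 24 hours. Of those 13 genes, 8 had an unadjusted p under 0.05 for the difference between the effects and none passed. Crygc, a lens crystallin gene, had the smallest p of the 24-hour comparison (-2.71 ± 0.56, adjusted p = 0.484), and -0.09 ± 0.56 at 16 hours.

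Cells of a 16-hour experiment were more alike than cells of an E3.25 experiment. The median Pearson correlation between cells of an experiment, over tested genes, was 0.843, 0.717 and 0.755 at 16 hours and 0.639 and 0.567 at E3.25. The groups did not overlap, with means of 0.772 ± 0.0645 (SD, n = 3) and 0.603 ± 0.051 (n = 2). The exact permutation p = 0.1 is the smallest that 10 arrangements allow, and its value adjusted over the 9 cell measures compared is 0.9. The 24-hour experiments had 0.648, 0.668 and 0.639 and the E3.75 experiments 0.670 and 0.678. More genes were detected per cell in the 16-hour experiments, and the part of this in the correlation was not tested.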

How the data were processed

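RNA of single inner cells was reverse-transcribed from the 3′ end and amplified, cDNA above 500 bases was recovered, and libraries were made with Nextera XT, per the labels' protocols. The authors deposited 1 table of TPM values; RSEM 1.3.3, STAR 2.7.9a, cutadapt 2.9, bcl2fastq 2.20.0 and the build mm10 are listed, without order or role, per the submitters' processing notes. The sources used here give no annotation. Since TPM holds no sequencing depth, depth is unknown and its effect on precision could not be given. Of 186 labelled samples, 16 without a column were not analysed here. Every cell was kept; cells were picked singly, so doublets were not called. The E3.25 pair of columns correlated at 0.721, above 0.648 for the next.

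Spike-in lines (92 of 55513) were left out. A gene was tested if its TPM reached 1 in 25% or more of any group's cells. One limma model (version 3.58.1, R 4.3.3) took the mean log2(TPM + 1) of each of 18 experiments in 7 groups. It used a trended eBayes step, 11 residual degrees of freedom and Benjamini-Hochberg adjustment over all tested genes. Every adjusted p of a gene is from this fit unless another setting is named with it. Fold changes on this scale understate the change of low genes. These 18 fall on 12 dates, because LY and DMSO cultures share theirs, and were treated as independent. Each experiment pooled several litters, so p-values measure the spread between collection days. For cell measures, a two-sided exact permutation test over 5 experiments was used. Gene positions are from GENCODE M21 (GRCm38), matched by symbol for 11518 of 11680 genes, promoter windows from RefSeq (GRCm38.p6).

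Named genes were 14 lineage genes, up to 12 rises and 12 falls past the threshold (filled to 5 with the smallest p), up to 3 or 5 genes of each of 43 lists by p, and the 5 smallest p of the other contrasts; further list members were named after their values were seen, to show a list's spread. The comparison, members and lists were chosen with earlier results of these data known. Alternatives changed the pseudocount, filter, scaling, groups fitted, weights, sequencing run, cells and experiments included, and the reference.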

Additional observations from a re-analysis of the deposited data

How the results depend on the processing

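The number of genes past the threshold in the 16-hour comparison, 6, was the least stable result. It was 13 with a pseudocount of 10, 81 with no filter on low genes, 10 with a filter at 50% of cells, 49 with only the groups compared, 10 after quantile normalization, 1 with genes detected as a covariate, 30 with experiments weighted by cells, 0 in sequencing run 1, 24 in run 2, 0 in cells with 5000 to 9000 genes detected, where the first 16-hour experiment dropped out, 0 without the LY groups, and 31 with the mean of E3.25 and E3.75 as the reference. Leaving out 1 experiment gave 0 to 52. Of 24-hour calls there were 17 with no filter, 1 with log2 of the mean TPM, 1 in run 2 and 0 to 5 without 1 experiment. The difference between the effects gave 1 call with a pseudocount of 0.1, 2 with a pseudocount of 10, 50 with no filter, 1 with the 50% filter, 1 with log2 of the mean TPM, 2 after quantile normalization, 3 with weights and 0 to 3 without 1 experiment. The cause of these changes was not tested. The fit without the LY groups was added after seeing the data. So was taking out the trend with transcript length, which left 5 calls, 2 of them among the 6. The median of all genes, 0.32, was -0.04 after quantile normalization and 0.79 with a pseudocount of 0.1. The difference in the share of cells with Nanog and Gata6, -8.33 percentage points, was 16.0 in run 1, 5.56 at a TPM of 1 and -20 to 3.33 without 1 experiment. The number of genes detected per cell (a difference of 1849) and the similarity between cells kept their direction in every setting run. Of the 757 values of single genes under alternatives, 639 kept their direction and side of the threshold, 67 were no longer past it, 28 became so and 23 turned sign without a call. No paired analysis was possible because the groups compared share no date label, and their replicate numbers only count experiments. TPM gives no depth, so a gene listed at 0 was not detected at an unknown depth.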

Other observations

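The 16-hour LY experiments, from embryos cultured with a PI3K inhibitor, carry the same dates as the 16-hour DMSO experiments and enter no comparison above. There Rab26os averaged 2.95, 1.95 and 2.94, B2m 4.81, 3.05 and 5.06, and mt-Tm 4.86, 2.88 and 6.27. Socs3 averaged 0.44, 0 and 0.96, and Junb 1.18, 0.78 and 2.19. Prl3b1 averaged 0.37, 0.40 and 0.21, and Gm48222 1.73, 1.22 and 0.28. In the 24-hour LY experiments, Rab26os averaged 0, 1.31 and 0.44, and B2m 1.06, 1.68 and 0.70.

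Lysosomal genes had a high single member beside a list median of -0.03 over 24 genes. Lamp2, a lysosome membrane protein, averaged 2.57 and 3.12 at E3.25 and 6.10, 5.26 and 4.23 after 16 hours. Transcripts typical of the oocyte were split: Zp3, a zona protein gene, averaged 2.2 and 2.32 against 0.55, 0.70 and 1.33, and Padi6 0.58 and 0.02 against 1.61, 1.56 and 0.52. None of these genes passed the limma threshold (adjusted p = 0.25, 0.257 and 0.303 in the order named).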
